A study of Mus musculus with 24 samples.

Results

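Anti-PD-1 added to brequinar was measured in 12 of the 24 tumours of the series, 6 in each of 2 groups. The BRQ+PD-1 mice were given brequinar and an antibody against PD-1, and the BRQ+IgG2a mice were given brequinar and an IgG2a antibody, so both groups carried the drug and the groups differed in the antibody. All mice were wild-type C57BL/6 and all tumours grew from D4M, a mouse melanoma line, and the agents were injected intraperitoneally. The other 12 tumours, from mice given anti-PD-1 (PD-1) or the IgG2a antibody (IgG2a) with no brequinar, were used for the same antibody contrast without the drug. The sources used here do not give doses, schedules or the ages of the mice and tumours. The line is 1 cell line in 1 strain, and each library is whole tumour tissue, so tumour cells, immune cells and stroma are summed.

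PD-1 (Pdcd1) is an inhibitory receptor on activated T cells, and its ligands PD-L1 (Cd274) and PD-L2 (Pdcd1lg2) are carried by tumour and myeloid cells. Blocking antibodies remove that brake, and T cells that respond release interferon gamma, which induces MHC genes and chemokines in the cells around them. Brequinar inhibits dihydroorotate dehydrogenase (Dhodh), a mitochondrial enzyme that pyrimidine synthesis needs. The series asked what the combination does to gene expression in the tumour, and the 2 groups compared here isolate the antibody in the presence of the drug.

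Total counts were 19106205 to 28882032 over the 12 libraries. CPM is the usual depth-scaled count, each count divided by its library total, and 1 CPM corresponds to 19.1 to 28.9 counts here. Mitochondrial genes took 1.18 to 2.12% of counts. Tumours of 1 group differed far beyond counting error, by 13.2 to 150 times the variance expected from it over 30 pairs. Of 12 melanocyte markers, 9 stayed below 1 CPM in all 12 libraries, and Dct, Tyr and Tyrp1, the pigment enzymes, had no count in any. The pigment regulator Mitf was present, at 11.6 to 48.2 CPM, and so were the neural crest gene Sox9, with medians of 138 and 166 CPM, and Axl, with medians of 841 and 872 CPM, in BRQ+PD-1 and BRQ+IgG2a. The label of melanoma therefore rests on the line's name and not on pigment genes. Sox9 and Axl come from a list of 12 neural crest and undifferentiated melanoma genes, of which 10 were tested and 2 were not. Which cells of the tissue carried their RNA was not tested, so these genes do not identify the tumour cells. Not all of the others are reported here.

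A few libraries stood apart. Leaving out 1 tumour moved the log2 fold change of 41 of the 94 genes named in the text by over 1.5 times or through 0, and these tumours, or the range over them, are given beside the results or under the dependence on processing. BRQ+IgG2a replicate 5 had the lowest mean log2 CPM of its group for T cell genes (1.02, group median 2.62), MHC class II genes (4.59, median 6.52) and mitosis genes (5.14, median 6.53). It was also among the highest tumours for type I interferon genes (5.52, median 5.23). BRQ+IgG2a replicate 6 was the highest of its group for T cell genes (3.66), MHC class II genes (7.33) and type I interferon genes (5.63). BRQ+PD-1 replicate 1 was the lowest tumour of its own group for T cell genes (0.93, median 1.94), and BRQ+IgG2a replicate 4 carried skeletal muscle RNA, with 4470 CPM of the muscle actin Acta1 against at most 207 CPM in BRQ+PD-1.

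**Figure D1:**
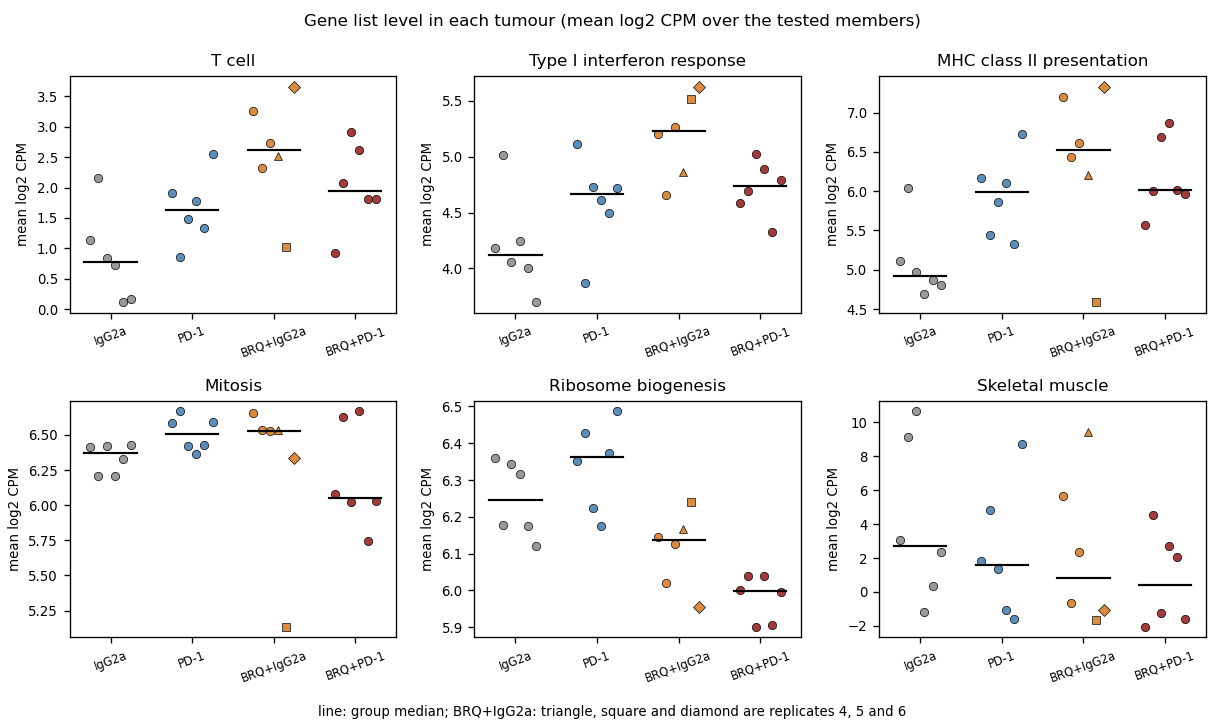
Mean log2 CPM over the tested members of 6 gene lists (vertical axes) in each of the 24 tumours, by group (horizontal axes); each point is 1 tumour and each line a group median. BRQ+IgG2a replicate 5 (square) lies at 1.02 for T cell genes and 5.14 for mitosis genes, far below the rest of its group, while its type I interferon level of 5.52 is close to the highest, 5.63.

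Adding anti-PD-1 to brequinar gave no gene that passed the test. Of 16029 genes tested with edgeR's quasi-likelihood test, 0 (0%) were called at a Benjamini-Hochberg adjusted p under 0.05 in either direction, and the lowest adjusted p was 0.208, for Dhh. At an unadjusted p under 0.05 there were 1168 genes (7.29% of those tested), 604 higher (3.77%) and 564 lower (3.52%) in BRQ+PD-1. The 2 groups did not overlap in CPM for 40 genes (0.25%), of which 26 (0.162%) were higher and 14 (0.0873%) lower. The number expected to separate by chance was not computed. Genes described below as not overlapping were picked for small p in the same values, so their separation is no further support.

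The data bounded most genes, though not all. The 95% interval of the fold change lay within 2-fold either way for 12514 genes (78.1%) and within 1.5-fold for 9443 (58.9%). The median log2 fold change over all genes was -0.01, and 628 genes had an estimate beyond 2-fold in size.

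The number of calls depended on 1 control tumour and on how tumours were weighted. Without BRQ+IgG2a replicate 5 the same test called 65 genes, 57 higher and 8 lower, and without BRQ+PD-1 replicate 3 it called 1 (Gm7618, a predicted gene). No other fit without a single tumour called a gene. Without BRQ+IgG2a replicate 5, 2918 genes had an unadjusted p under 0.05 in either direction, against 1168 with all libraries. Counts of list members without that tumour, given below, stand against this larger number. They are counts on the lower side, while the 2918 holds both directions, so the 2 are not directly comparable. DESeq2 called 2 genes with all libraries, Dhh and C1qtnf1. limma voom called 612 genes (443 higher, 169 lower) with sample quality weights and 0 genes without them. The weight of BRQ+IgG2a replicate 5 was 0.230, the lowest of that group. BRQ+PD-1 replicates 1 and 2 were also weighted down, to 0.275 and 0.369. The highest weights were 2.35 for BRQ+PD-1 replicate 3 and 2.22 for BRQ+IgG2a replicate 3. Of the 65 genes called without BRQ+IgG2a replicate 5, 64 were among the 612, all in the same direction. That is 98.5% of the 65 and 10.5% of the 612. Both fits use the same counts and leave out or weight down BRQ+IgG2a replicate 5, so the overlap is no separate support.

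The 65 genes were selected by leaving out that tumour, so its place in them is a description: in 61 of them it was the BRQ+IgG2a tumour at the BRQ+PD-1 side of its group. All 65 kept the direction they had with all libraries, and 46 had an unadjusted p under 0.05 there. The examples that follow, chosen after their values were seen, are the 3 with the smallest adjusted p in that fit and Ptprn, which followed them after a RIKEN clone.

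Nes encodes nestin, an intermediate filament protein of neural progenitors and undifferentiated melanoma. Its CPM was 479, 605 and 719 (lowest, median, highest) in BRQ+PD-1 and 322, 370 and 713 in BRQ+IgG2a, where replicate 5 held the 713. With that tumour the log2 fold change was 0.53 ± 0.17 (SE, edgeR adjusted p = 0.665), and without it 0.79 ± 0.12 (adjusted p = 0.00345). The other 5 BRQ+IgG2a tumours all lay below every BRQ+PD-1 tumour.

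Apobr, a lipoprotein receptor of macrophages, had 40, 43.1 and 53 CPM in BRQ+PD-1 and 24.2, 26.4 and 52.4 in BRQ+IgG2a, the last again in replicate 5. Its log2 fold change was 0.54 ± 0.18 with all tumours and 0.82 ± 0.12 without that one. Rapgef3, a guanine nucleotide exchange factor activated by cyclic AMP, ran from 60.2 to 66.9 CPM in BRQ+PD-1 and from 33.9 to 69.7 in BRQ+IgG2a, with log2 fold changes of 0.45 ± 0.13 and 0.63 ± 0.09. Ptprn, a secretory granule protein, reached 343 CPM in replicate 5 against a group median of 85.8, and 147 to 266 CPM in BRQ+PD-1. Its log2 fold change was 0.72 ± 0.35 with replicate 5 and 1.41 ± 0.22 without it.

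The genes with the smallest p are described next, first those higher in BRQ+PD-1, none of which was called. Dhh encodes desert hedgehog, a secreted hedgehog ligand. It had 11.2, 12.9 and 14.1 CPM in BRQ+PD-1 and 4.49, 7.95 and 9.48 in BRQ+IgG2a, a log2 fold change of 0.79 ± 0.14 (95% interval 0.49 to 1.08, edgeR adjusted p = 0.208). All BRQ+PD-1 tumours were above all BRQ+IgG2a tumours. DESeq2 put its log2 fold change at 0.78 with an adjusted p of 0.00183, and edgeR at 0.86 with an adjusted p of 0.0168 without BRQ+IgG2a replicate 5.

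C1qtnf1 encodes a secreted protein of the C1q and tumour necrosis factor superfamily. Its CPM was 208, 250 and 274 in BRQ+PD-1 and 125, 151 and 177 in BRQ+IgG2a, and the groups did not overlap. The log2 fold change was 0.73 ± 0.15 (95% interval 0.42 to 1.03, edgeR adjusted p = 0.360; DESeq2 adjusted p = 0.0488). Without brequinar the same contrast gave -0.23 ± 0.15, and the difference between the antibody effects was 0.96 ± 0.21 (edgeR adjusted p = 0.301).

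Another 3 genes on the higher side had groups that did not overlap. Itga1, the collagen-binding integrin alpha chain carried by tissue-resident lymphocytes and stroma, had 75.5, 82.9 and 102 CPM in BRQ+PD-1 and 45.7, 59 and 63.1 in BRQ+IgG2a (log2 fold change 0.60 ± 0.16). Slc39a1, a zinc importer, had 274, 301 and 311 CPM against 196, 248 and 274 (0.34 ± 0.08), and its extremes nearly touched. Pcdhb22, a clustered protocadherin, had 17.7, 19.8 and 25.9 CPM against 14, 14.6 and 17.6 (0.48 ± 0.11). Their edgeR adjusted p-values were between 0.591 and 0.665.

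In the remaining genes of that side the groups overlapped. Nr1d2, the clock repressor REV-ERB beta, had a log2 fold change of 0.61 ± 0.15, with 92 to 142 CPM in BRQ+PD-1 and 42.4 to 100 in BRQ+IgG2a. Slc2a13, a myo-inositol transporter, had 0.85 ± 0.21, and Tspan4, a tetraspanin, had 0.34 ± 0.07. Fhod1, a formin that organises actin, and Pi4kb, a phosphatidylinositol kinase of the Golgi, had 0.27 ± 0.07 and 0.25 ± 0.07. Each missed the threshold in edgeR with all tumours, and Tspan4 was called without BRQ+IgG2a replicate 5 (0.38 ± 0.07, adjusted p = 0.0335). limma voom with quality weights called all 10 named genes of the higher side and 9 of 10 on the lower side, all but mt-Tc. These genes were picked for small p in the same libraries, so the calls are no separate support. Over all genes that fit called 612.

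On the lower side 1 of the 10 named genes, Sema3c, a secreted semaphorin that guides vessels and axons, had groups that did not overlap. Its values were 4.58, 8.07 and 12.2 CPM in BRQ+PD-1 and 12.8, 17.7 and 26.2 in BRQ+IgG2a, a log2 fold change of -1.15 ± 0.32 (95% interval -1.81 to -0.49, edgeR adjusted p = 0.665). Without brequinar the antibody contrast for Sema3c was also below 0, at -0.71 ± 0.32.

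Megf6, a secreted protein with epidermal growth factor repeats, had the largest fold of the genes named on this side, -2.27 ± 0.58, at low levels of 0.155, 0.964 and 1.59 CPM against 0.51, 3.78 and 8.9. Its groups overlapped through BRQ+IgG2a replicate 5, which held the 0.51, and replicate 1, and without replicate 5 it was called (log2 fold change -2.51 ± 0.52, edgeR adjusted p = 0.0438). Lgals9 encodes galectin-9, a lectin that binds the checkpoint receptor TIM-3. It had 58.3, 67.1 and 83.8 CPM against 63.7, 97.2 and 113, a log2 fold change of -0.42 ± 0.11, and was called without replicate 5 at -0.49 ± 0.10 (adjusted p = 0.0438).

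The other named genes of the lower side had smaller folds or low levels. Rps6, a protein of the small ribosomal subunit, had 466, 536 and 628 CPM against 619, 656 and 713 (log2 fold change -0.29 ± 0.07). Mrps9, a mitochondrial ribosomal protein, had -0.28 ± 0.08, Rpp30, a subunit of the tRNA-processing enzyme RNase P, had -0.26 ± 0.07, and Orc5, of the origin recognition complex, had -0.30 ± 0.07. Tamm41, a cardiolipin synthesis enzyme, had -0.45 ± 0.12, Cdkl3, a kinase, had -0.80 ± 0.21, and the mitochondrial cysteine tRNA mt-Tc had -1.61 ± 0.45 at 0.398 to 1.78 CPM in BRQ+PD-1. In all of these the groups overlapped by at least 1 tumour.

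**Figure D2:**
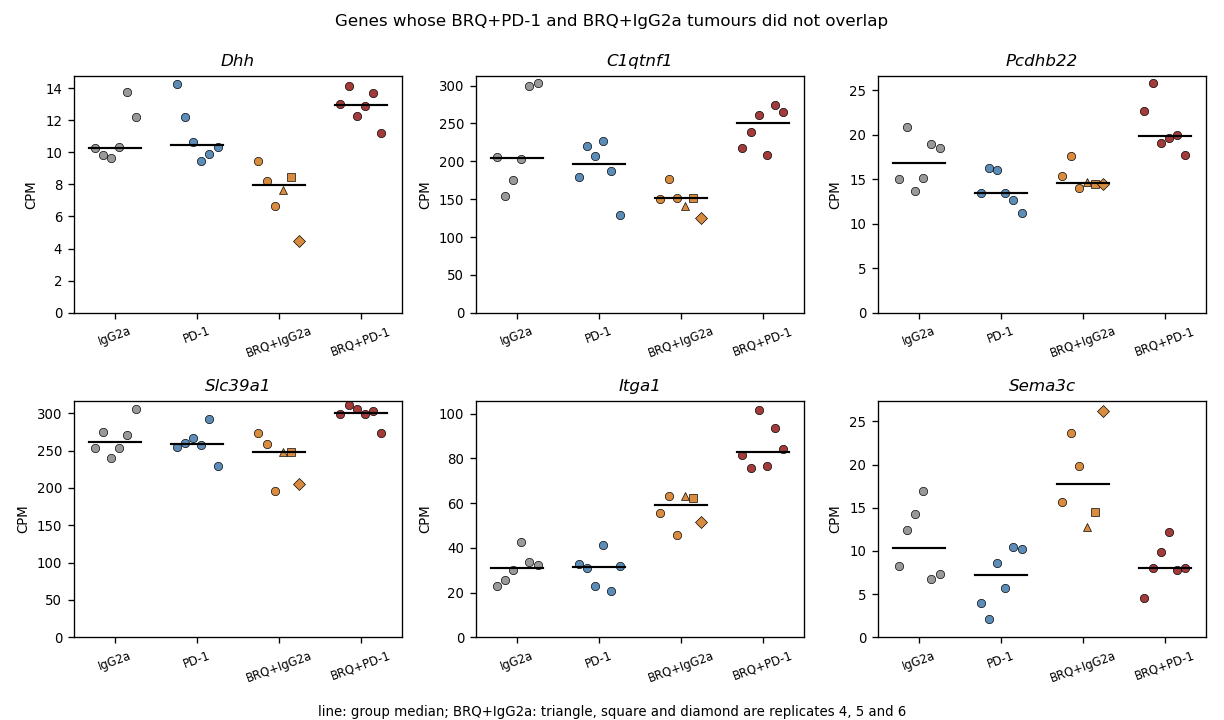
CPM (vertical axes, from 0) of 6 genes whose BRQ+PD-1 and BRQ+IgG2a tumours did not overlap, in all 24 tumours by group (horizontal axes); points are tumours and lines group medians. Dhh runs from 11.2 to 14.1 CPM in BRQ+PD-1 and from 4.49 to 9.48 in BRQ+IgG2a, and Sema3c from 4.58 to 12.2 and from 12.8 to 26.2.

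The target of the antibody and its ligands were not called. Pdcd1 had 3.38, 4.55 and 8.93 CPM in BRQ+PD-1 and 2.55, 7.91 and 15.5 in BRQ+IgG2a, a log2 fold change of -0.51 ± 0.41 that was -0.23 without BRQ+IgG2a replicate 6 (95% interval -1.35 to 0.34, edgeR adjusted p = 0.733). Cd274 had 41.1, 46 and 69 CPM against 30.7, 42.9 and 87.1, and Pdcd1lg2 had 3.67, 4.85 and 6.58 against 2.97, 3.79 and 10.4, with log2 fold changes of -0.05 ± 0.27 and -0.11 ± 0.32. The BRQ+PD-1 tumours lay inside the BRQ+IgG2a range for all 3 genes. The signs of the ligand values changed when single tumours were left out, so no direction can be read for them.

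Without brequinar the same genes had estimates above 0: 1.21 ± 0.42 for Pdcd1, 0.78 ± 0.27 for Cd274 and 0.98 ± 0.32 for Pdcd1lg2, none called (adjusted p 0.489 to 0.514). Of the 17 tested genes of the receptor, its ligands and its proximal signalling, 14 had a fold change below 0 with brequinar, against 51.9% of all genes, with a median of -0.15. That median was -0.28 without BRQ+IgG2a replicate 5 and -0.10 without BRQ+PD-1 replicate 6, and 10 to 15 genes were below 0 when single tumours were left out.

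T cell genes were lower in estimate in BRQ+PD-1 throughout the list, within a wide spread. All 20 T cell genes had a fold change below 0, with a median of -0.60, and 0 of them had an unadjusted p under 0.05. Fewer T cells and less T cell RNA per cell cannot be told apart in whole tissue. The mean log2 CPM of the list was 1.02, 2.62 and 3.66 in BRQ+IgG2a and 0.93, 1.94 and 2.91 in BRQ+PD-1, so the groups overlapped over most of their range. Without BRQ+IgG2a replicate 6 the median was -0.39, with 18 of 20 below 0. Without replicate 5 it was -0.80, with 5 genes at an unadjusted p under 0.05 on the lower side, where 2918 of all genes were at that level in either direction.

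Single T cell genes show the same spread. Cd8a, the coreceptor of killer T cells, had 3.45, 12 and 21.6 CPM in BRQ+PD-1 and 3.85, 17.7 and 40.5 in BRQ+IgG2a, a log2 fold change of -0.61 ± 0.48 (95% interval -1.59 to 0.38, edgeR adjusted p = 0.729). Cd4, the helper T cell coreceptor, had 4.66, 6.97 and 14.8 CPM against 4.96, 12.5 and 15.7 (-0.56 ± 0.28), and Cd3e of the T cell receptor complex had 1.59, 6.44 and 11.8 against 2.74, 9.79 and 21.2 (-0.70 ± 0.46). For Cd8a and Cd3e the lowest tumours were BRQ+PD-1 replicate 1 and BRQ+IgG2a replicate 5. The log2 fold changes of Cd8a and Cd3e were -0.26 and -0.41 without BRQ+IgG2a replicate 6.

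Of 22 cytotoxic lymphocyte genes, 21 were below 0, with a median of -0.37 and none at an unadjusted p under 0.05. Without BRQ+IgG2a replicate 5 the median was -0.55 with 6 genes at that level, and without replicate 6 it was -0.22. Prf1, which encodes perforin, had 6.39, 9.03 and 14.5 CPM against 7.33, 13.1 and 33.4 (log2 fold change -0.70 ± 0.35), Gzmb, granzyme B, had -0.29 ± 0.40, and Ifng, interferon gamma, had -0.50 ± 0.64 at a median of 0.938 CPM against 1.34. Without BRQ+IgG2a replicate 6 Prf1 was at -0.35, Gzmb at -0.14 and Ifng at -0.15. Without replicate 1 Gzmb was at -0.07 and Ifng at -0.24, and without BRQ+PD-1 replicate 5 Gzmb was at -0.17 and without replicate 4 Ifng at -0.91.

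The T cell activation list was mixed, with 12 of 18 genes below 0, a median of -0.16, a highest value of 0.54 and 3 genes at an unadjusted p under 0.05. Among its lowest was Eomes, a transcription factor of effector T cells, which had 0.663, 1.39 and 2.71 CPM against 0.835, 3 and 3.84 (-0.89 ± 0.37, unadjusted p = 0.0229 in edgeR).

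Of 12 regulatory T cell genes, 11 were below 0, with a median of -0.53, and 2 had an unadjusted p under 0.05. Il2ra, the high-affinity interleukin-2 receptor chain, had 1.41, 2.57 and 3.49 CPM against 2.18, 4.85 and 9.68, a log2 fold change of -1.04 ± 0.36 (95% interval -1.78 to -0.29, edgeR adjusted p = 0.665). Ctla4, an inhibitory receptor of regulatory and activated T cells, had 0.427, 1.52 and 2.87 CPM against 0.835, 3.98 and 5.47 (-1.20 ± 0.52, adjusted p = 0.665). Foxp3, the defining transcription factor, had -0.30 ± 0.48, which ran from -0.70 without BRQ+PD-1 replicate 3 to -0.01 without BRQ+IgG2a replicate 1 and was -0.12 and -0.18 without BRQ+PD-1 replicates 1 and 5.

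Of 16 checkpoint and exhaustion genes, 11 were below 0, with a median of -0.24 that was -0.13 without BRQ+IgG2a replicate 1 and -0.38 without replicate 5. The inhibitory receptors Lag3, Tigit and Havcr2 had log2 fold changes of -0.47 ± 0.42, -0.45 ± 0.38 and -0.24 ± 0.20, and Tox, which maintains exhausted T cells, had -0.61 ± 0.63. These 4 values were -0.15, -0.27, -0.10 and -0.36 without BRQ+IgG2a replicate 6. Without BRQ+PD-1 replicate 1 Lag3 was at -0.29 and Tox at -0.38, and without BRQ+PD-1 replicate 3 Tigit was at -0.74. All of their groups overlapped.

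**Figure D3:**
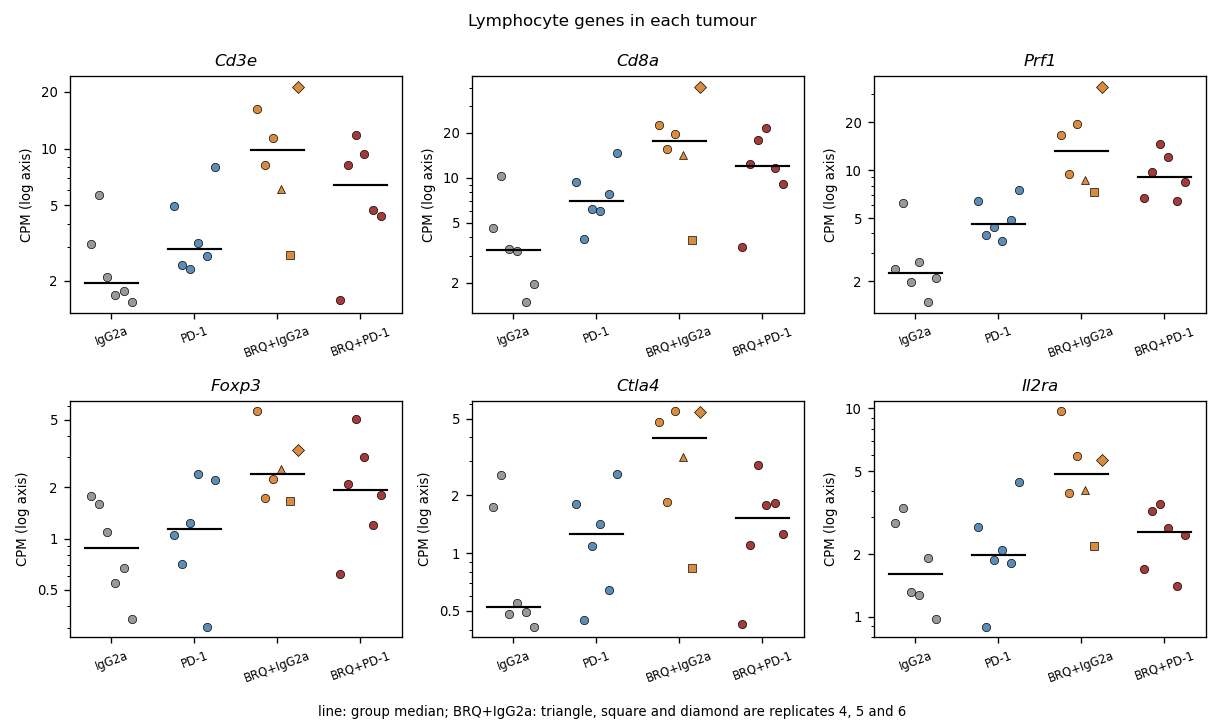
CPM of 6 lymphocyte genes (vertical axes, log scale) in each of the 24 tumours, by group (horizontal axes); points are tumours and lines group medians. In every panel the BRQ+PD-1 median is below the BRQ+IgG2a median and the ranges overlap; Ctla4 runs from 0.427 to 2.87 CPM in BRQ+PD-1 and from 0.835 to 5.47 in BRQ+IgG2a.

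The genes induced by type I interferon formed the list with the most small p-values. Interferon alpha and beta activate a complex that contains Stat2 and Irf9 and binds the interferon-stimulated response element in promoters. To show that element in these genes, the promoter windows of the RefSeq table (GRCm38.p6, 250 bases before to 50 after the start) were searched on both strands for 2 GAAA blocks with 2 bases of any kind between them. The pattern is in the windows of 12 of the 23 list genes that matched, which is 13 of 28 windows (46.4%), against 3.44% of all 32851 windows. The 4 members with the smallest p in the comparison whose match lies, with 20 bases on each side, before the start are printed 5′ to 3′ along the gene's strand, with the match in capitals, here the blocks read on the other strand as TTTC. The Ifit1 stretch holds 2 matches.
Ifit1, chr19:34640784-34640833, + strand: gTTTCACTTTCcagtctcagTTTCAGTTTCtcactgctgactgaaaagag
Stat2, chr10:128270256-128270305, + strand: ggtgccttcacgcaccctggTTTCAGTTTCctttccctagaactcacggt
Ifit3, chr19:34583387-34583436, + strand: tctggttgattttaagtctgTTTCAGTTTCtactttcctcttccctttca
Ifit3b, chr19:34607783-34607832, + strand: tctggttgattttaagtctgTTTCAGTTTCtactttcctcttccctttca
The Ifit3 and Ifit3b stretches are the same letters, and reads of these near-identical genes may be split or shared between them. A match is a description of the sequence and not a measured binding site.

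In BRQ+PD-1, 31 of 32 type I interferon genes had a fold change below 0, with a median of -0.55, and 18 had an unadjusted p under 0.05 on the lower side, where all genes gave 3.52%. None was called (lowest adjusted p 0.665). The mean log2 CPM of the list was 4.33, 4.74 and 5.03 in BRQ+PD-1 and 4.66, 5.23 and 5.63 in BRQ+IgG2a, so the groups overlapped.

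The count of 18 rested on a few tumours. Leaving out single BRQ+IgG2a tumours gave 5 (replicate 6) and 11 (replicate 5), and leaving out single BRQ+PD-1 tumours gave 10 (replicate 5) and 11 (replicate 1), with 14 to 21 for the others. It was 1 with both control replicates 5 and 6 left out, a fit chosen after seeing the data. The median was -0.43 without replicate 6 and -0.30 without both.

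Ifit1, an antiviral protein that binds foreign RNA, had 17.8, 29.9 and 39.3 CPM in BRQ+PD-1 and 33.2, 51.9 and 78.1 in BRQ+IgG2a, a log2 fold change of -0.87 ± 0.33 (95% interval -1.56 to -0.18, edgeR adjusted p = 0.665). Its relatives Ifit3 and Ifit3b had -0.84 ± 0.33 and -0.80 ± 0.33. For Ifit1, 4 of the 6 BRQ+PD-1 tumours were below the lowest BRQ+IgG2a tumour.

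Oasl2, of the oligoadenylate synthetase family, had 44.7, 59.3 and 76.9 CPM against 61.9, 93 and 142 (log2 fold change -0.65 ± 0.22), and Mx2, an antiviral GTPase, had 1.28, 2.08 and 2.47 against 2.35, 2.99 and 3.93 (-0.65 ± 0.24). These 2 had the smallest p of the list. Of the signalling proteins, Stat2 had 52.1, 67.3 and 84.6 CPM against 64, 90.3 and 141 (-0.42 ± 0.17, or -0.28 without BRQ+IgG2a replicate 6), and Irf9 had 34.2, 45.5 and 56.5 against 49.3, 58.9 and 82.6 (-0.39 ± 0.15). The ubiquitin-like modifier Isg15 had -0.56 ± 0.28.

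Ifit2 was the exception, with a fold change above 0 at 0.10 ± 0.16, which was -0.07 without BRQ+PD-1 replicate 1. It had 65, 74.9 and 122 CPM against 68, 70.2 and 107. Ifit1, Ifit2, Ifit3, Ifit3b, Irf9, Stat2 and Isg15 were picked for mention after their values were seen.

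Without brequinar the same list pointed the other way. There 31 of 32 genes had a fold change above 0, against 49.9% of all genes, with a median of 0.37. None was called, and dependence on single PD-1 or IgG2a tumours was not tested. The difference between the 2 antibody effects was below 0 for 32 of 32 genes (50.5% of all genes), with 25 at an unadjusted p under 0.05 on that side, where all genes gave 4.35%. Over all genes, 0 (0%) passed the edgeR test of that difference (lowest adjusted p 0.206, 1222 genes or 7.62% at an unadjusted p under 0.05), so no single gene is shown to differ between the settings by it. DESeq2 called 10 genes for the same difference and limma voom with quality weights called 268, with 0 by voom without weights.

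**Figure D4:**
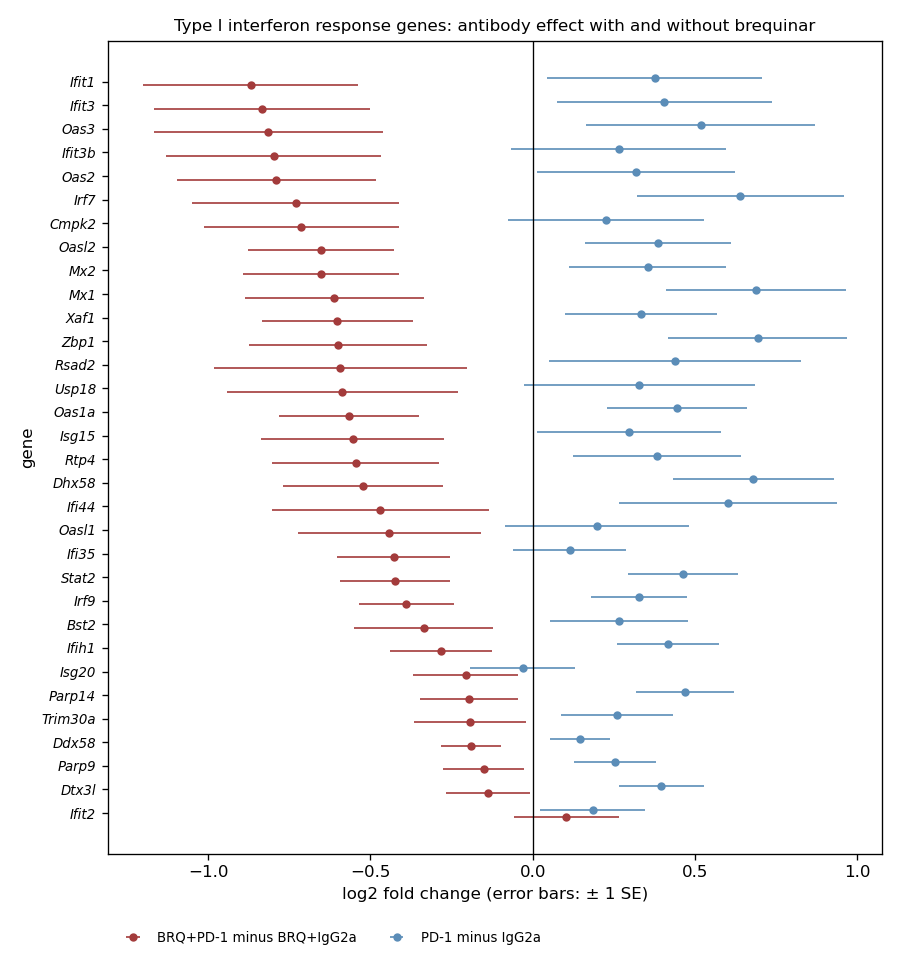
Log2 fold change ± 1 SE (horizontal axis) of the 32 type I interferon genes (vertical axis) for BRQ+PD-1 minus BRQ+IgG2a (red) and for PD-1 minus IgG2a (blue). With brequinar 31 of 32 points lie below 0, from -0.87 for Ifit1, and without it 31 of 32 lie above 0.

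Interferon gamma genes gave smaller values. Of 31 genes, 27 were below 0, with a median of -0.32 that was -0.09 without BRQ+IgG2a replicate 6, and none had an unadjusted p under 0.05. The immunity-related GTPases Irgm1 and Irgm2 had 76.4, 116 and 149 CPM against 108, 157 and 285, and 66, 106 and 132 against 75, 143 and 302. Their log2 fold changes were -0.51 ± 0.25 and -0.59 ± 0.30, or -0.30 and -0.31 without BRQ+IgG2a replicate 6. The T cell attractants Cxcl9 and Cxcl10 had -0.18 ± 0.36 and -0.51 ± 0.35. Cxcl9 was at 0.02, -0.36 and -0.05 without BRQ+IgG2a replicates 6, 5 and 1, and at -0.28 and -0.09 without BRQ+PD-1 replicates 4 and 5.

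Antigen presentation followed the same order. All 12 MHC class II genes were below 0 with a median of -0.32, which was -0.10 without BRQ+IgG2a replicate 6 and -0.18 without replicate 1. Without replicate 5 it was -0.54, with 2 genes at an unadjusted p under 0.05 on the lower side, where 2918 of all genes were at that level in either direction. Of 23 MHC class I genes, 20 were below 0 with a median of -0.21, which was -0.09 without BRQ+IgG2a replicate 6. H2-Ab1, a class II chain, had 250, 507 and 991 CPM against 121, 665 and 1459 (log2 fold change -0.33 ± 0.44), and H2-K1, a class I heavy chain, had -0.21 ± 0.17. Psme1 and Psme2, which form the proteasome activator of antigen processing, had -0.44 ± 0.20 and -0.38 ± 0.19. The BRQ+IgG2a group held both the lowest and the highest H2-Ab1 tumours, and without BRQ+IgG2a replicates 6, 1 and 5 in turn the value was -0.03, -0.15 and -0.55. Without BRQ+PD-1 replicates 1, 3 and 4 in turn it was -0.18, -0.50 and -0.51, and H2-K1 was at -0.13 without BRQ+IgG2a replicate 6.

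Lymphocyte chemokines and their receptors had the lowest median of the immune lists, -0.68, with 13 of 14 below 0 and 3 at an unadjusted p under 0.05. Without BRQ+IgG2a replicate 1 that count was 0 and the median -0.55, and without replicate 5 they were 7 and -0.87. Ccl22, a dendritic cell chemokine that attracts regulatory T cells, had 1.67, 3 and 7.73 CPM against 3.57, 6.66 and 17.6 (log2 fold change -1.05 ± 0.39, or -0.69 without BRQ+IgG2a replicate 1), and Ccr7, the lymph node homing receptor, had 2.83, 3.61 and 8.57 against 2.92, 8.67 and 10.8 (-0.75 ± 0.34). Both genes also stand on the dendritic cell list, where 13 of 16 were below 0 with a median of -0.52 (-0.29 without BRQ+IgG2a replicate 1).

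Of 25 macrophage genes, 16 were below 0, with a median of -0.06 that was 0.05 without BRQ+IgG2a replicate 1, and the scavenger receptor Msr1 was on the other side at 0.36 ± 0.17 (0.22 without BRQ+PD-1 replicate 1), with 86.6, 103 and 158 CPM against 73.2, 89.2 and 111. Folr2, of tissue-resident macrophages, had 0.58 ± 0.29. Of 10 monocyte genes 6 were below 0, among them Ly6c2, the marker of inflammatory monocytes, at 1.57, 3.26 and 6.61 CPM against 5, 8.77 and 11.3 (-1.18 ± 0.44). The inflammatory cytokine Il1b had 0.50 ± 0.31, the highest value on the list of inflammatory cytokines and monocyte chemokines. Of the 24 tested genes of that list, 18 were below 0, with a median of -0.29 (-0.10 without BRQ+IgG2a replicate 5). Mast cell genes were the immune list furthest above 0, with 9 of 10 above and a median of 0.48 (0.85 without BRQ+IgG2a replicate 5, 0.27 without BRQ+PD-1 replicate 3), such as Tpsab1, a mast cell tryptase, at 0.80 ± 0.47 (1.29 and 0.52 without those tumours in turn) and the transcription factor Gata2 at 0.18 ± 0.10.

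**Figure D5:**
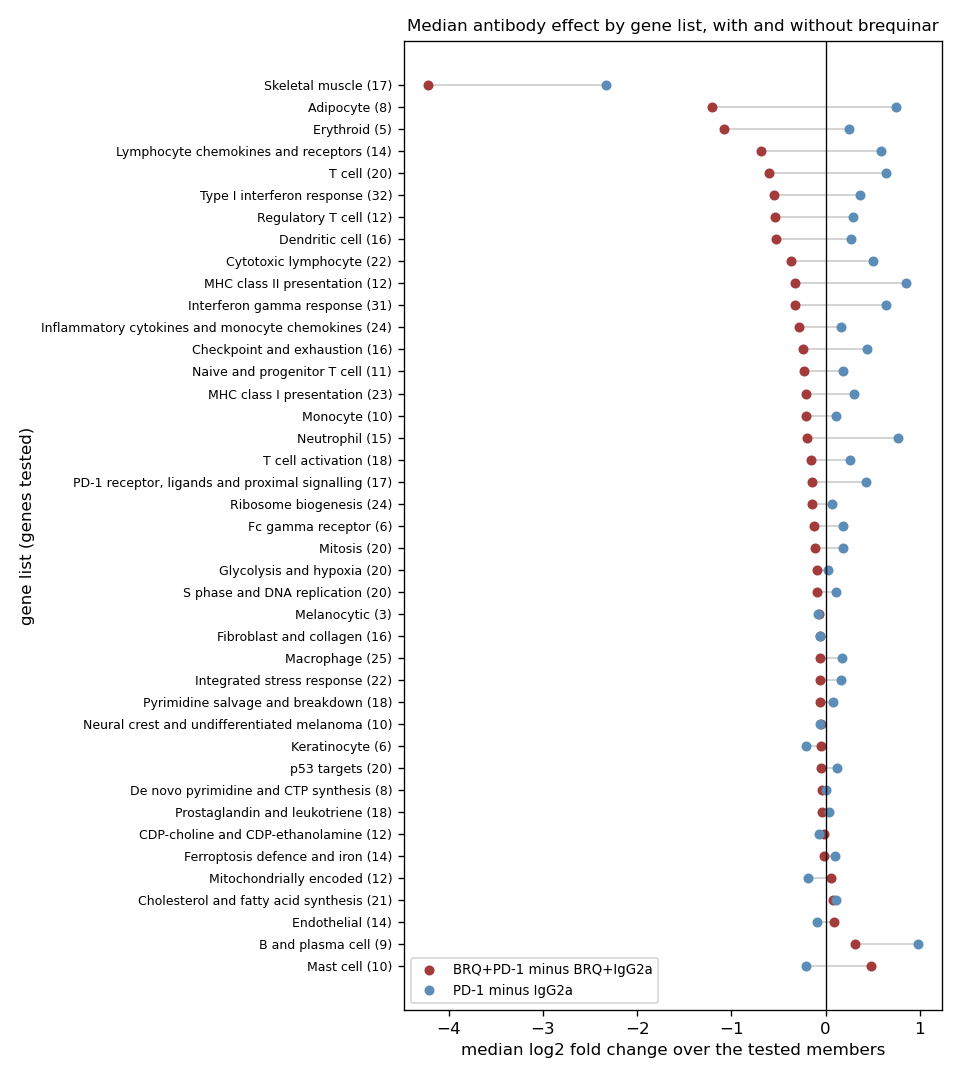
Median log2 fold change over the tested members of each of 41 gene lists (horizontal axis, with the number of genes after each name on the vertical axis) for BRQ+PD-1 minus BRQ+IgG2a (red) and PD-1 minus IgG2a (blue). T cell genes lie at -0.60 with brequinar and 0.64 without it, and MHC class II genes at -0.32 and 0.86; the muscle list lies below 0 in both.

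The plot of list medians sets the antibody effect with brequinar beside that without it, in separate tumours. Without brequinar all 20 T cell genes and all 12 MHC class II genes were above 0, with medians of 0.64 and 0.86, and the cytotoxic list had a median of 0.50. No gene of these lists was called in that contrast. The mean log2 CPM of T cell genes ran from 0.12 to 2.16 in IgG2a and from 0.86 to 2.55 in PD-1, so these groups overlapped. The highest of each, IgG2a replicate 2 and PD-1 replicate 6, had 4554 and 4171 CPM of Acta1. Dependence on single PD-1 or IgG2a tumours was not tested. The anti-PD-1 contrast without the drug called 3 genes (0.0187%), Runx3, Tlr12 and Cd300a. Runx3, a transcription factor of killer T cells, had 0.62 ± 0.11 without brequinar and -0.09 ± 0.11 with it (-0.17 to -0.02 when single tumours were left out), and 20.1 to 32.3 CPM in BRQ+PD-1 against 20.9 to 34.9 in BRQ+IgG2a. The difference of -0.71 ± 0.15 had an adjusted p of 0.252 in edgeR and 0.0225 in DESeq2.

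Tlr12, a profilin-sensing receptor of dendritic cells, had 1.75 ± 0.30 without the drug and 0.13 ± 0.29 with it, and Cd300a, an inhibitory receptor of myeloid cells, had 0.97 ± 0.17 and 0.06 ± 0.16. The values with the drug changed sign when single tumours were left out. For both the edgeR adjusted p of the difference was 0.387. With brequinar the 2 groups overlapped nearly completely in each of the 3 genes.

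Proliferation genes depended on BRQ+IgG2a replicate 5. Of 20 mitosis genes 18 were below 0 with a median of -0.11, and of 20 replication genes 17 were below 0 with a median of -0.09, none with an unadjusted p under 0.05. Without replicate 5 the mitosis median was -0.26 with 10 genes at an unadjusted p under 0.05, and the replication median was -0.20 with 3. Those counts are on the lower side. Over all genes 2918 were at that level in either direction in that fit, against 1168 with all libraries. The medians shrank to -0.05 for mitosis without BRQ+PD-1 replicate 5 and to -0.02 for replication without BRQ+IgG2a replicate 1. limma voom with quality weights gave 19 of 20 mitosis genes at an unadjusted p under 0.05 and called 4 of them as lower. Over all genes that voom fit put 3734 at that level in either direction and called 612, 169 of them lower.

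Birc5, survivin, had 36.8, 47.1 and 85.5 CPM in BRQ+PD-1 and 20.6, 76.7 and 90.4 in BRQ+IgG2a, where replicate 5 held the 20.6 and the other tumours at least 73.4. Ube2c, of the mitotic ubiquitin pathway, had 57.8, 71.1 and 119 CPM against 41, 106 and 123. Their log2 fold changes were -0.37 ± 0.23 and -0.31 ± 0.18. Mki67, the Ki-67 antigen, had 179, 230 and 478 CPM against 113, 328 and 353, and its estimate of -0.02 ± 0.21 had no stable sign.

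Ribosome biogenesis genes showed small differences of one kind. Of 24 genes 21 were below 0, with a median of -0.14, and 5 had an unadjusted p under 0.05 on the lower side (4 to 7 when single tumours were left out). Rrp12, a ribosomal RNA processing factor, had 23.4, 25.5 and 29.6 CPM against 26.9, 34.4 and 43.3 (log2 fold change -0.41 ± 0.15), and Nop58, a core nucleolar protein, had 70.3, 80.7 and 99.7 against 89, 97.4 and 114 (-0.26 ± 0.10). The groups overlapped in both.

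The pathway of the drug target differed little between groups that both received the drug. Dhodh had 7.88, 12.9 and 15.3 CPM in BRQ+PD-1 and 10.1, 12.9 and 14.6 in BRQ+IgG2a, a log2 fold change of -0.01 ± 0.11 (95% interval -0.24 to 0.22). Cad, the enzyme of the first steps, had -0.08 ± 0.11, Umps, the last enzyme of UMP synthesis, had -0.07 ± 0.12, and Ctps, the CTP synthase, had -0.13 ± 0.11. Single tumours moved these values between -0.22 and 0.08. Of the 8 genes tested 7 were below 0, with a median of -0.04, and all intervals of the 4 genes named lay within 1.5-fold either way.

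CDP-choline genes, which use CTP to build phospholipids, had a median of -0.02, with 6 of 12 below 0. Chka, choline kinase alpha, had -0.09 ± 0.12, Pcyt1a, the rate-limiting enzyme, had 0.18 ± 0.12, and Cept1, which completes the pathway, had 0.27 ± 0.13. Without BRQ+PD-1 replicate 1 the last 2 were at 0.07 and 0.13, and without BRQ+IgG2a replicate 5 Chka was at 0.06. Prostaglandin genes varied between tumours more than between groups: Ptgs2, cyclooxygenase-2, ran from 36.3 to 1187 CPM in BRQ+PD-1 and from 18.5 to 883 in BRQ+IgG2a (log2 fold change 0.70 ± 0.85, from -0.27 without BRQ+PD-1 replicate 1 to 2.19 without BRQ+IgG2a replicate 5). Ptgs1 had 0.92 ± 0.44, which was 0.47 and 1.40 without the same 2 tumours, and the prostaglandin E2 receptor gene Ptger2 had -0.87 ± 0.42 at 0.471 to 1.25 CPM against 0.556 to 3.5 (-0.53 without BRQ+IgG2a replicate 6).

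Markers of other tissues were lower in estimate in BRQ+PD-1, with 0 genes called and overlapping groups. All 17 muscle genes were below 0 with a median of -4.22, which was -0.99 without BRQ+IgG2a replicate 4 and -5.88 without BRQ+PD-1 replicate 2, and their summed level was 29.7 to 18014 CPM in BRQ+IgG2a and 34.7 to 869 in BRQ+PD-1. All 8 adipocyte genes were below 0, with a median of -1.20 (-0.49 without BRQ+IgG2a replicate 4, -3.02 without BRQ+PD-1 replicate 4) and summed levels of 26.8 to 658 CPM and 23.4 to 62 CPM. All 5 erythroid genes were below 0 with a median of -1.07, which was -0.64 without BRQ+IgG2a replicate 5, and summed levels of 36.1 to 179 CPM and 24.5 to 60.2 CPM in those groups. The haemoglobin gene Hba-a2 had -1.59 ± 0.57.

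The part of the adipocyte and erythroid genes in the results above was not tested. Without the 4 libraries richest in muscle RNA, 1 of them BRQ+IgG2a replicate 4, the comparison still gave 0 calls, and the T cell and type I interferon medians were -0.69 and -0.62. Stromal lists were close to 0, with medians of -0.06 for 16 fibroblast and collagen genes and 0.09 for 14 endothelial genes. On the former list 10 genes were below 0 and 6 above, with values up to 0.75. Its lowest was Postn, periostin, with 19.2, 48.1 and 81.2 CPM against 38.4, 122 and 246 (log2 fold change -1.47 ± 0.54). Thy1, which marks both T cells and fibroblasts, had -0.78 ± 0.41. Scara5, a ferritin receptor of fibroblasts, had -0.69 ± 0.47.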

How the data were processed

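The deposited counts are whole-number reads per Ensembl gene for 55414 genes, 1 column per tumour, which the authors did not normalize. The submitters' processing notes name HISAT2 2.2.1, StringTie 2.2.1, Trim Galore 0.6.7, MultiQC 1.11 and FastQC 0.11.8, and the build GRCm39. Counting program, annotation and strand setting: not given in the sources used here. Deposited FPKM and TPM tables were not used. Per the labels' protocols, RNA came from tumour tissue on RNeasy columns and libraries from Novogene. Symbols came from an annotation of the older GRCm38 (GENCODE); 52081 genes had one, 15980 of those tested.

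edgeR 4.0.16 (R 4.3.3) fitted all 24 libraries by group alone, after filterByExpr and TMM scaling (factors 0.914 to 1.05), and its quasi-likelihood test used robust dispersion (20 residual degrees of freedom). Benjamini-Hochberg adjustment ran over the 16029 genes tested, with calls at 0.05, and every adjusted p is from this test unless DESeq2 1.42.0 or limma 3.58.1 is named. The SE of a log2 fold change was taken from its F value. List levels are mean log2 CPM with a prior count of 2. Nothing in the labels says whether tumours came from separate mice, so p-values measure the spread between these tumours. Scripts were tested on simulated data.

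Named genes are up to 15 called each way, filled to 10 each way by smallest p at a mean of at least 1 CPM without predicted genes, 31 genes always named, and the 2 smallest-p members of each list; others are marked in the text. Not every gene that the rule names is reported here. The members, lists (660 genes, 613 tested) and rules were chosen with earlier results of these data known. H2, Ifit and Hba genes may share or split reads.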

Additional observations from a re-analysis of the deposited data

Results flagged for a closer look

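In 224 groups of 6 values (94 named genes and 18 lists in BRQ+PD-1 and BRQ+IgG2a), 20 had a tumour at an end of the range whose gap to the next exceeded the 95% critical value of Dixon's test as a share of the whole range; chance flags about 1 group in 20. BRQ+IgG2a replicate 5 accounted for 9 of the 20 and BRQ+PD-1 replicate 1 for 4. These flags are not separate evidence on replicate 5. Nes, Apobr and Ptprn were picked from the genes called without that tumour, and Ifit2 after its values were seen. Mki67, Birc5 and the mitosis and replication lists all concern proliferation. The tally is therefore a description, and the rate of 1 in 20 does not apply to it.

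BRQ+IgG2a replicate 5 was the lowest of its group for the mitosis list (mean log2 CPM 5.14, next 6.33), the replication list (5.03, next 5.72), Mki67 (113 CPM, next 269.9) and Birc5 (20.6 CPM, next 73.4). It was the highest for Nes (713 CPM, next 405), Ptprn (343 CPM, next 112), Apobr (52.4 CPM, next 27.5), Ptgs2 (883 CPM, next 209.8) and Ifit2 (107 CPM, next 80.3).

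BRQ+PD-1 replicate 1 was the highest of its group for Ptgs2 (1187 CPM, next 279), Ptgs1 (149 CPM, next 58.3), Cept1 (80.3 CPM, next 56.9) and mt-Tc (1.78 CPM, next 0.89). Without it the log2 fold change of Ptgs2 was -0.27.

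Muscle actin set apart BRQ+IgG2a replicate 4 (Acta1 4470 CPM, next 439) and BRQ+PD-1 replicate 2 (207 CPM, next 51.5), and the first was also the highest of its group for Npas2 (2.57 CPM, next 0.717). BRQ+IgG2a replicate 3 was the lowest of its group for Nr1d2 (42.4 CPM, next 79.6) and the highest for Per1 (156 CPM, next 67.3). BRQ+PD-1 replicate 3 was the highest for Ccr7 (8.57 CPM, next 4.87) and BRQ+PD-1 replicate 6 the lowest for Slc39a1 (274 CPM, next 299).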

How the results depend on the processing

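Calls between BRQ+PD-1 and BRQ+IgG2a numbered 0 with edgeR, and also with relative log expression factors, without the expression filter, without robust dispersion, with the 2 groups alone, without the 4 muscle-rich libraries and with voom without quality weights. They numbered 2 with DESeq2, 612 with voom with quality weights, 0 to 65 when 1 tumour was left out and 7 without BRQ+IgG2a replicates 5 and 6 together; the cause was not tested. For the difference between the antibody effects with and without brequinar, 0 became 10 with DESeq2, 268 with voom with quality weights, 1 without the muscle-rich libraries (Adamtsl2) and 0 to 1 when 1 tumour was left out (Spef1 without BRQ+PD-1 replicate 1). The fits without replicates 5 and 6 together and voom without weights were chosen after seeing the data. Same-numbered tumours of the 2 groups did not deviate together (correlations -0.47 to 0.31, 2 of 6 best with their own number); a replicate block gave 0 calls for both results, with 939 genes at an unadjusted p under 0.05 in the comparison of the 2 groups.

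Signs reversed in 38 of 2067 values of named genes, in 11 genes. The ranges without 1 tumour were -0.18 to 0.21 for Cd274, -0.23 to 0.15 for Pdcd1lg2, -0.072 to 0.26 for Ifit2, -0.36 to 0.024 for Cxcl9, -0.056 to 0.080 for Dhodh, -0.13 to 0.0076 for Umps, -0.15 to 0.058 for Chka, -0.27 to 2.19 for Ptgs2, -0.034 to 0.29 for Tlr12, -0.037 to 0.13 for Cd300a and -0.23 to 0.080 for Mki67. voom with quality weights gave 0.24 for Cd274, 0.022 for Dhodh and 0.0022 for Chka, and voom without weights 0.064 for Cd274 and 0.0011 for Pdcd1lg2. Without replicates 5 and 6 together the values were 0.48 for Cd274, 0.049 for Pdcd1lg2 and 0.029 for Chka, and without the muscle-rich libraries -0.0059 for Tlr12, -0.0033 for Cd300a and 0.021 for Mki67. All 330 list medians under alternatives, over 15 lists, moved by less than the SD of the list level between tumours, which is a wide bound. For T cell and MHC class II genes that SD was 0.91 and 0.99 in BRQ+IgG2a, beside medians of -0.60 and -0.32. A median of 0 would also have passed there, so the count does not show that the medians were stable.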

Other observations

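These lists were chosen after values were seen, so their values are given as a description. Of 79 cytosolic ribosomal protein genes, 76 had a fold change below 0 in BRQ+PD-1 against BRQ+IgG2a, with a median of -0.13 and 8 at an unadjusted p under 0.05. The share depended on the weighting of tumours: with voom and quality weights 46 of 79 were below 0 and the median was -0.02. Of 77 mitochondrial ribosomal protein genes, 68 were below 0, with a median of -0.12 and 13 at an unadjusted p under 0.05, and with voom and quality weights 56 were below 0 with a median of -0.09.

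Of 18 tested circadian clock genes, 10 were above 0, with a median of 0.02. The output gene Dbp and the repressor genes Nr1d1 and Nr1d2 had log2 fold changes of 0.63 ± 0.30, 0.47 ± 0.24 and 0.61 ± 0.15, while the activator Arntl (BMAL1) and the repressor Per1 had -0.42 ± 0.20 and -0.60 ± 0.31. Per1 was at -0.22 without BRQ+IgG2a replicate 3. None was called by edgeR. With quality weights voom called Dbp, Nr1d1 and Nr1d2, in a fit that called 612 genes in all. Npas2, a partner of Clock, had -2.48 ± 0.96, which was -1.41 without BRQ+IgG2a replicate 4. The sources used here do not give the time of day of collection.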
